A study of Mus musculus with 12 samples.

Results

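The Toll-like receptors and adaptors described here are 10 genes, *Tlr1*, *Tlr2*, *Tlr3*, *Tlr4*, *Tlr5*, *Tlr7*, *Tlr9*, *Cd14*, *Ly96* and *Myd88*, chosen by their symbols. All 10 were among the 16152 genes of the count table and among the 15994 that were tested. They were measured by RNA sequencing of the whole lung of C57BL/6 mice, males and females, with no treatment or genetic change, at 2 embryonic time-points (E15.5 and E18.5) and 2 postnatal ones (P5 and P8). Each time-point had 3 libraries, 12 in all, with 41337443 to 53901957 reads on the counted genes. Mice of 1 time-point were littermates, so time-point and litter cannot be told apart, and p-values measure only the spread between these samples. Levels are given as CPM (reads per 1e6 mapped reads of the library), and changes as log2 fold changes from edgeR with their standard errors (SE).

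Toll-like receptors are membrane proteins that recognise conserved molecules of microbes. *Tlr4* binds bacterial lipopolysaccharide together with the small secreted protein MD-2, the product of *Ly96*, and CD14 hands the lipid to this complex. *Tlr2* recognises bacterial lipopeptides as a dimer with *Tlr1* or *Tlr6*, *Tlr5* recognises flagellin, and *Tlr3*, *Tlr7* and *Tlr9* sense double-stranded RNA, single-stranded RNA and CpG DNA inside endosomes. *Myd88* encodes the adaptor that joins all of these receptors except *Tlr3* to kinases that activate NF-kB. In the lung these genes are used by macrophages and other leukocytes, and several of them also by epithelial and endothelial cells.

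The 250 bases before the RefSeq start of transcription were searched for short motifs of factors that act in this pathway or in myeloid cells. The search was made because 8 of the 10 members rose across birth. RefSeq windows (build GRCm38.p6) were matched for *Tlr2*, *Tlr3*, *Tlr5*, *Tlr9* and *Myd88*, and *Tlr1* had 2 of them, which made 7 windows. No window was matched for *Ly96*, or for *Tlr4*, *Tlr7* and *Cd14*, which were among the 8 that rose, so these genes were not searched. *Myd88* was searched but was not among the 8. The letters searched on both strands were GGGANTTNC for NF-kB, GAAANNGAA for interferon regulatory factors (IRF), GAGGAA for the core of PU.1 and TGANTCA for AP-1. The sequences below are the 30 bases around each match, read 5′ to 3′ on the gene's strand, with the match in capitals. They are shown because they are the members' own matches to the factors of the pathway.
*Tlr2*, NF-kB match, chr3:83841761-83841790, minus strand: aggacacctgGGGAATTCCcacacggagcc
*Tlr3*, NF-kB match, chr8:45410572-45410601, minus strand: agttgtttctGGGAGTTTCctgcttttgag
*Myd88*, IRF match, chr9:119340039-119340068, minus strand: gagcttctcgGAAAGCGAAagaaggagggg
*Tlr9*, AP-1 match, chr9:106222529-106222558, plus strand: caaatgatgtgTGACTCAttgtaccacctg
*Tlr9*, PU.1 core match, chr9:106222474-106222503, plus strand: ggagagtggaaaGAGGAAggggttgagggg
*Tlr1*, PU.1 core match, chr5:64933564-64933593, minus strand: aattaaatgttgGAGGAAgtaggagcttga
The match in *Tlr2* began 172 bases before the RefSeq start and also matched in the reverse orientation 1 base further on, so both are a single place. In the GENCODE vM21 annotation the *Tlr3* stretch lay in an exon, inside the annotated ends of the gene. The *Myd88* stretch also lay inside the annotated gene (119335934 to 119341411), not before its start, with 3 of its 30 bases exonic. Of the *Tlr2* stretch 7 of the 30 bases were exonic, and the *Tlr1* and *Tlr9* stretches lay outside the gene. The *Tlr5* window held none of the 4 motifs. Of the 7 member windows, 2 held the NF-kB letters, 1 the IRF letters, 1 the AP-1 letters and 2 the PU.1 core. Over all 32851 windows of the same length, 3.54% held the NF-kB letters, 7.13% the IRF letters, 6.75% the AP-1 letters and 23.3% the PU.1 core. The difference between these shares was not tested. A match is a description of the letters, not a bound site.

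Between E18.5 and P5, 8 of the 10 members rose and none fell. These were all 7 receptors and *Cd14*, while *Ly96* and *Myd88* were not called. A call needs an absolute log2 fold change over 1 and a Benjamini-Hochberg FDR under 0.05 in edgeR's quasi-likelihood test over all genes, and 17.5% of all genes tested were called higher in this interval. The median log2 fold change was 1.67 over the members and close to 0 (-0.002) over all genes tested. *Tlr9* passed the filter on low values (1 CPM of the reads on counted genes, in 3 libraries) only through its postnatal libraries, and *Tlr1* had only 2 embryonic libraries at or above 1 CPM, so these genes could be tested only because they were high after birth. The other 8 had at least 5 embryonic libraries at that level.

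**Figure D1:**
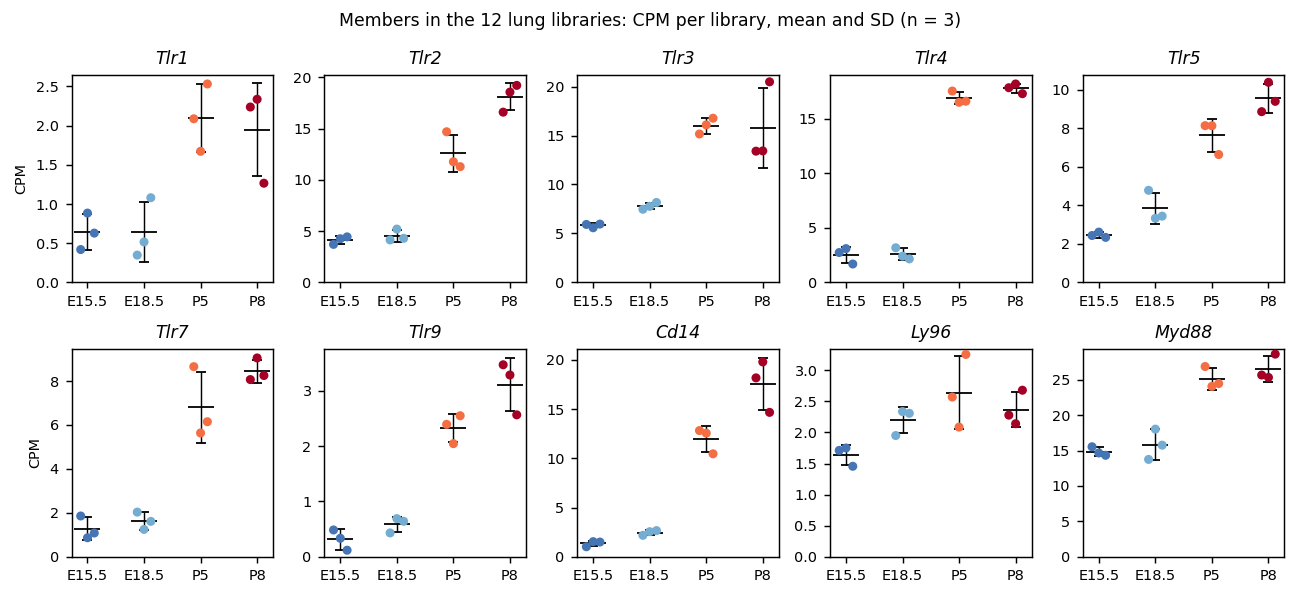
CPM of each of the 10 members (vertical axes, each starting at 0) in the 12 lung libraries, by time-point. Points are libraries, bars the mean and whiskers the SD (n = 3). The postnatal points lie above all embryonic points in 9 panels, and overlap with them for Ly96.

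The 3 genes of the lipopolysaccharide receptor did not move alike. *Tlr4* (chromosome 4, 66827584 to 66930284, plus strand) was at 2.74, 3.11 and 1.69 CPM at E15.5 and at 3.18, 2.41 and 2.16 CPM at E18.5, then at 17.5, 16.5 and 16.6 CPM at P5 and at 17.9, 18.2 and 17.3 CPM at P8. The embryonic and the postnatal libraries formed 2 separate levels, with close replicates within each. Its log2 fold change between E18.5 and P5 was 2.80 (SE 0.20, FDR = 1.1e-07 in edgeR), the largest among the members in this interval. It was 0.05 from E15.5 to E18.5 (SE 0.20, FDR = 0.89 in edgeR) and 0.06 from P5 to P8 (SE 0.18, FDR = 0.86 in edgeR).

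*Cd14* (chromosome 18, 36725067 to 36726798, minus strand) encodes the lipid-anchored co-receptor that passes lipopolysaccharide on. It was at 1.02, 1.53 and 1.49 CPM at E15.5, 2.18, 2.55 and 2.66 CPM at E18.5, then 12.8, 12.6 and 10.5 CPM at P5 and 18.2, 19.8 and 14.7 CPM at P8. No library of a time-point overlapped with those of the time-point before it, so its ranges followed age, where those of *Tlr4* overlapped before birth and again after it. The log2 fold change was 0.88 between E15.5 and E18.5 (SE 0.19, FDR = 0.0075 in edgeR), 2.37 from E18.5 to P5 (SE 0.18, FDR = 1.7e-07 in edgeR) and 0.54 from P5 to P8 (SE 0.17, FDR = 0.044 in edgeR). Only the middle step passed the fold change cutoff. Over the whole span, from E15.5 to P8, *Cd14* had the largest change of the members, 3.78 (SE 0.19, FDR = 4.1e-09 in edgeR).

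*Ly96* (chromosome 1, 16688051 to 16709611, plus strand) was the member that changed least across birth. It was at 1.71, 1.75 and 1.46 CPM at E15.5, 1.95, 2.34 and 2.31 CPM at E18.5, then 2.57, 2.09 and 3.25 CPM at P5 and 2.28, 2.14 and 2.68 CPM at P8. The ranges of E18.5, P5 and P8 overlapped, and only E15.5 lay below the rest. Between E18.5 and P5 the log2 fold change was 0.35 (SE 0.21, 95% interval -0.10 to 0.81, FDR = 0.15 in edgeR), so the interval does not reach the cutoff of 1. The change from E15.5 to P5 was 0.78 (SE 0.21, FDR = 0.0048 in edgeR) and from E15.5 to P8 0.61 (SE 0.21, FDR = 0.02 in edgeR), both past the FDR threshold but under the fold change cutoff. The depth behind these values was 74 to 198 reads per library.

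*Tlr2* (chromosome 3, 83836272 to 83841767, minus strand), the receptor shared by the lipopeptide dimers, was at 3.71, 4.27 and 4.44 CPM at E15.5, 4.15, 5.21 and 4.30 CPM at E18.5, then 14.7, 11.8 and 11.3 CPM at P5 and 16.6, 18.6 and 19.2 CPM at P8. The embryonic time-points overlapped, and each of the later steps was free of overlap. It rose by 1.56 on the log2 scale from E18.5 to P5 (SE 0.14, FDR = 8.6e-07 in edgeR). From P5 to P8 its change was 0.50 (SE 0.14, FDR = 0.027 in edgeR), past the FDR threshold only. *Tlr1* (chromosome 5, 64924679 to 64933563, minus strand), a partner of *Tlr2*, was among the lowest members per length. It was at 0.420, 0.885 and 0.629 CPM at E15.5, 0.349, 0.517 and 1.08 CPM at E18.5, then 2.09, 1.67 and 2.53 CPM at P5 and 2.24, 2.34 and 1.27 CPM at P8, behind which stood 17 to 154 reads per library. The postnatal libraries stayed above the embryonic ones, and P8 replicate 3 lay nearest the embryonic range. The log2 fold change between E18.5 and P5 was 1.78 with the largest SE of the members (0.43, edgeR FDR = 0.0024). Of all stretches of read length in *Tlr1* transcripts, 7.80% also occurred in *Tlr6*, so a small part of its reads cannot be told apart from that paralog.

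*Tlr5* (chromosome 1, 182954788 to 182976044, plus strand), the flagellin receptor, was at 2.44, 2.61 and 2.34 CPM at E15.5, 4.78, 3.33 and 3.44 CPM at E18.5, then 8.14, 8.13 and 6.64 CPM at P5 and 8.87, 10.4 and 9.40 CPM at P8. None of its successive time-points overlapped. Its log2 fold change was 0.65 between E15.5 and E18.5 (SE 0.17, FDR = 0.017 in edgeR), 1.07 from E18.5 to P5 (SE 0.16, FDR = 7.4e-05 in edgeR) and 0.30 from P5 to P8 (SE 0.16, FDR = 0.21 in edgeR). The step across birth stood at the fold change cutoff: it was 0.98 without E18.5 replicate 2 and 0.99 without E18.5 replicate 3 or without P5 replicate 1, each time with the FDR still under 0.05. Only *Tlr5* and *Cd14* passed the FDR threshold between the embryonic time-points.

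Among the endosomal receptors, *Tlr7* (chromosome X, 167304929 to 167330558, minus strand) was at 1.86, 0.865 and 1.08 CPM at E15.5, 2.03, 1.24 and 1.61 CPM at E18.5, then 8.65, 5.64 and 6.15 CPM at P5 and 8.07, 9.05 and 8.25 CPM at P8. The time-points before birth overlapped, as did those after it. It rose by 2.16 on the log2 scale from E18.5 to P5 (SE 0.29, FDR = 2.2e-05 in edgeR). *Tlr9* (chromosome 9, 106222598 to 106226883, plus strand) had the lowest mean level per length before birth, with 0.484, 0.334 and 0.118 CPM at E15.5 and 0.431, 0.689 and 0.641 CPM at E18.5. It was at 2.39, 2.04 and 2.55 CPM at P5 and at 3.47, 3.28 and 2.56 CPM at P8. Every P8 library was above all at P5, but P8 replicate 3 (2.564 CPM) and P5 replicate 3 (2.548 CPM) were almost level. The log2 fold change between E18.5 and P5 was 2.07 (SE 0.37, FDR = 2.5e-04 in edgeR), and the lowest library held 6 reads of the gene.

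*Tlr3* (chromosome 8, 45395665 to 45411080, minus strand), which signals through the adaptor of *Ticam1* instead of *Myd88*, was at 5.92, 5.58 and 5.96 CPM at E15.5, 7.47, 7.77 and 8.17 CPM at E18.5, then 15.2, 16.1 and 16.8 CPM at P5 and 13.4, 13.4 and 20.48 CPM at P8. Replicates were tight until P5 and spread at P8, where replicate 3 stood above all other libraries. Replicates 1 and 2 at P8 are the libraries high in thymocyte markers described below, and their part in this spread was not tested. The log2 fold change was 0.43 between E15.5 and E18.5 (SE 0.14, FDR = 0.052 in edgeR), where the libraries did not overlap, and 1.12 from E18.5 to P5 (SE 0.14, FDR = 1.6e-05 in edgeR). From E18.5 to P8 it was 1.08, and 0.84 without P8 replicate 3, under the cutoff. An antisense gene, *Gm45542*, covers 7.32% of the exon length of *Tlr3*, and the sources used here do not say whether the counting used strand.

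*Myd88* (chromosome 9, 119335934 to 119341411, minus strand), the shared adaptor, was at 15.54, 14.7 and 14.3 CPM at E15.5, 13.8, 18.03 and 15.8 CPM at E18.5, then 26.9, 24.1 and 24.5 CPM at P5 and 25.7, 25.3 and 28.6 CPM at P8. All postnatal libraries were above all embryonic ones. The change from E18.5 to P5 was 0.76 (SE 0.10, 95% interval 0.54 to 0.97, FDR = 2.2e-05 in edgeR), so *Myd88* differed past the FDR threshold without reaching the cutoff of 1. With the FDR alone, 9 members were higher at P5 than at E18.5, against 35.4% of all genes tested. *Acaa1a*, on the opposite strand, overlaps 11.3% of the exon length of *Myd88*.

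**Figure D2:**
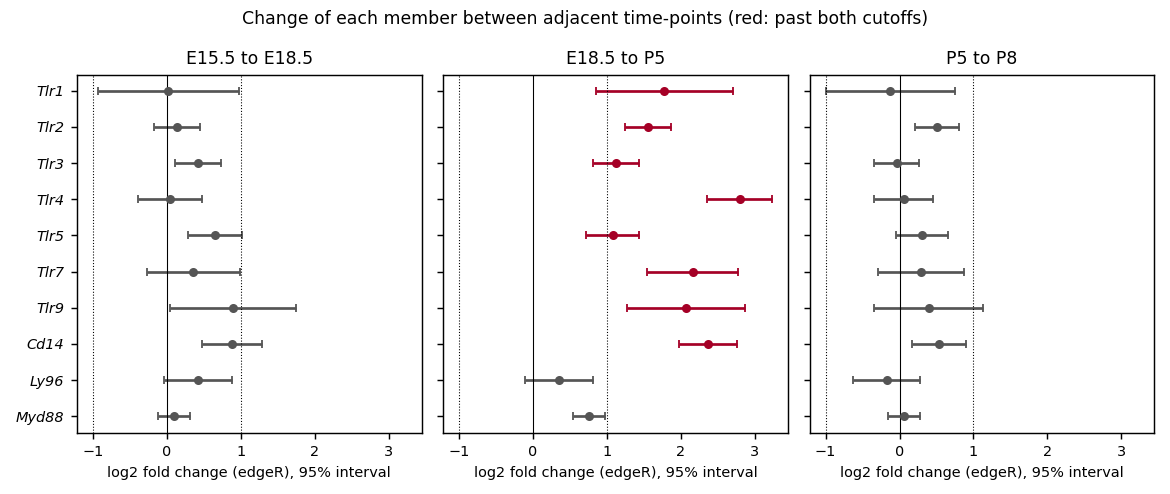
Log2 fold change of each member between adjacent time-points from edgeR, with 95% intervals. Red marks changes past both cutoffs (dotted lines at -1 and 1), which are 8 members from E18.5 to P5 and none in the other intervals.

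In the 2 intervals that do not span birth, no member was called in edgeR's test. From E15.5 to E18.5, where 1.59% of all genes tested were called higher, the members' log2 fold changes ran from 0.02 to 0.90 with a median of 0.39. With the FDR alone *Cd14* and *Tlr5* were higher at E18.5, 2 of 10 beside 11.6% of all genes. *Tlr9* had the largest estimate, 0.90 (SE 0.39, FDR = 0.12 in edgeR), and it was called without E15.5 replicate 1, at 1.37 (edgeR FDR = 0.048). From P5 to P8, where 2.88% of all genes tested were called higher, the changes ran from -0.17 to 0.54 with a median of 0.17. *Tlr2* and *Cd14* were higher at P8 with the FDR alone, 2 of 10 beside 9.75% of all genes. The P8 libraries lay above all P5 libraries without overlap for 4 of the 10 members, *Tlr2*, *Tlr5*, *Tlr9* and *Cd14*, and for 20.8% of all genes tested. For *Tlr9* the gap was slight, with the lowest P8 library at 2.564 CPM and the highest P5 library at 2.548 CPM.

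The wider intervals each called 8 members, which were *Tlr1*, *Tlr2*, *Tlr3*, *Tlr4*, *Tlr5*, *Tlr7*, *Tlr9* and *Cd14* every time. Against E15.5, 19.5% of all genes were called higher at P5 and 20.9% at P8, and against E18.5 19.6% were called higher at P8. The median log2 fold change of the members was 1.76, 2.12 and 1.86 in these intervals, which share libraries with each other and with the adjacent steps. Without the 3 libraries high in thymocyte markers (E15.5 replicate 2 and P8 replicates 1 and 2), left out together after the data were seen, *Tlr1* had a log2 fold change of 1.36 from E15.5 to P8 (edgeR FDR = 0.056) and 1.03 from E18.5 to P8 (edgeR FDR = 0.11), and was no longer called in either. *Myd88* was at 1.02 from E15.5 to P8 without the 3 libraries. As these values rest on a single P8 library, no FDR or call is given for them. Every postnatal library was above every embryonic one for 9 of the 10 members, all but *Ly96*, and for 26.6% of all genes tested.

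The unequal changes shifted the balance between the members. To compare them within libraries, the log2 ratio of each pair was compared between the 6 embryonic and the 6 postnatal libraries by an exact two-sided permutation test over the 924 splits, a comparison chosen after the data were seen, with p-values adjusted over the 45 pairs. The test treats single libraries as exchangeable across time-points and litters, although those of a time-point were littermates. Its p-values therefore do not measure the spread between litters, and its smallest possible p is 0.0022. It found 32 of the 45 pairs past an adjusted p of 0.05. These ratios restate the unequal changes given above, which were known when the test was chosen. The share among pairs of other genes was not computed, so the count has nothing to be set against. Pairs with *Tlr1* and *Tlr9*, which could be tested only because they were high after birth, are among them. The log2 ratio of *Tlr4* to *Ly96* lay between -0.10 and 0.83 in the embryonic libraries and between 2.35 and 3.09 in the postnatal ones, higher by 2.41 (exact permutation p = 0.0022, adjusted 0.0049). *Cd14* relative to *Ly96* was higher by 2.61 with no overlap (exact permutation p = 0.0022, adjusted 0.0049), while *Tlr4* relative to *Cd14* differed by -0.20 with overlapping ranges (exact permutation p = 0.52, adjusted 0.57). *Ly96* was lower after birth relative to each of the 9 other members past an adjusted p of 0.05.

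*Myd88* was lower after birth relative to 8 other members and higher only relative to *Ly96*. The log2 ratio of *Tlr4* to *Myd88* was between -3.08 and -2.11 before birth and between -0.73 and -0.48 after it (difference 2.04, exact permutation p = 0.0022, adjusted 0.0049). *Tlr4* relative to *Tlr5* was higher by 1.32, again without overlap (exact permutation p = 0.0022, adjusted 0.0049). At the other end, *Tlr4*, *Cd14*, *Tlr7* and *Tlr9* were lower after birth relative to no other member past an adjusted p of 0.05. *Tlr4* relative to *Tlr9* differed by 0.03 (exact permutation p = 0.94, adjusted 0.94) over embryonic ratios that spread from 1.75 to 3.84.

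**Figure D3:**
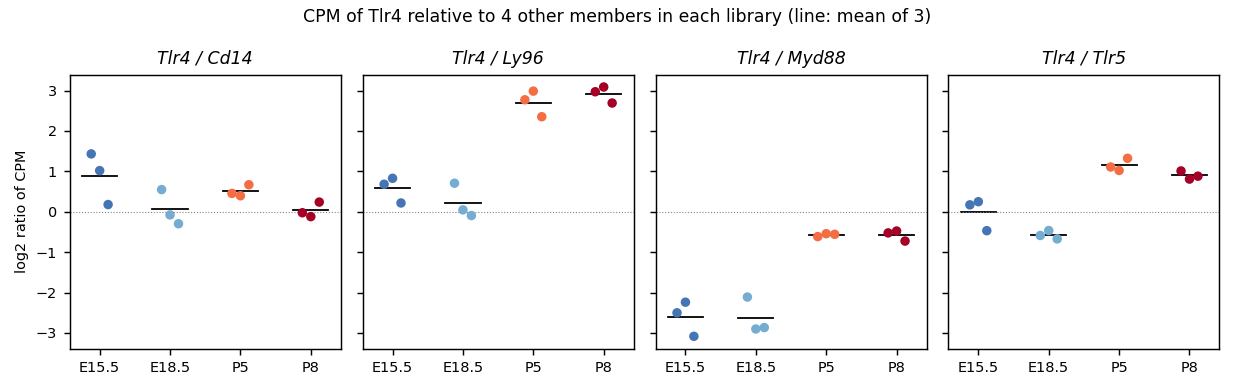
Log2 ratio of the CPM of Tlr4 to that of Cd14, Ly96, Myd88 and Tlr5 in each of the 12 libraries, by time-point, with the mean of 3 as a line. Only shifts between time-points are to be read, since the genes differ in length. The ratio to Ly96 lies below 0.83 in all embryonic libraries and above 2.35 in all postnatal ones, while the ratios to Cd14 overlap.

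Levels of different members were compared per length, as mean CPM per kilobase of exon. *Myd88* was the highest at each time-point, with 5.76 ± 0.242, 6.15 ± 0.831, 9.76 ± 0.589 and 10.3 ± 0.703 (SD, n = 3) in the order of age. *Ly96* came next before birth, at 1.60 ± 0.157 and 2.15 ± 0.210, and had the 6th rank at P5 (2.58 ± 0.575) and at P8 (2.32 ± 0.274), where its range overlapped with those of its neighbours *Tlr3* or *Tlr4* and *Tlr7*. *Cd14* moved from the 5th rank (0.778 ± 0.166 at E15.5) to the 2nd (6.89 ± 0.747 at P5 and 10.1 ± 1.51 at P8), and at P8 its libraries overlapped with those of *Myd88*. *Tlr2* had the 3rd rank throughout, with 1.37 ± 0.127, 1.51 ± 0.190, 4.18 ± 0.611 and 6.01 ± 0.450. It was not apart from *Ly96* at E15.5, or from *Tlr3* and *Cd14* at E18.5. *Tlr4* per kilobase was at 0.452 ± 0.132 at E15.5 and 3.20 ± 0.0810 at P8, where it could not be ordered against *Tlr3* (3.03 ± 0.783). *Tlr1* and *Tlr9* had the lowest means at every time-point, between 0.0897 and 0.893, but the libraries of *Tlr1* overlapped with those of *Tlr7* at E15.5 and E18.5.

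Markers of leukocytes moved in the same interval. All 4 pan-leukocyte markers (*Ptprc*, *Cd53*, *Laptm5* and *Coro1a*) were called higher at P5 than at E18.5, and their summed CPM ran 50.5 to 80.1 at E15.5, 43.1 to 50.6 at E18.5, 274 to 324 at P5 and 397 to 545 at P8. The highest sums at E15.5 (80.1, replicate 2) and P8 (507 and 545, replicates 1 and 2) were in the 3 libraries high in thymocyte markers. Their partners were at 52.9 and 50.5 at E15.5 and at 397 at P8. Of 12 macrophage and monocyte markers 8 were called higher, and their sum went from 136 to 143 CPM before birth (E18.5) to 2155 to 2774 CPM after it (P5), most of it *Lyz2*, which alveolar type 2 cells also express. The sums of 9 neutrophil markers (3.66 to 6.01 CPM in E18.5 libraries, with *Ly6g* at 0, and 55.3 to 76.3 CPM at P5) and of 5 B cell markers (2.03 to 2.44 and 50.5 to 63.6 CPM) moved likewise, with 6 of 6 and 5 of 5 tested genes called higher, several of which passed the filter through postnatal libraries alone. The part of these cells in the members' changes was not tested. In whole lung, more cells of a type and more RNA per cell cannot be told apart.

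The sum of 8 T cell and thymocyte markers was 0.440 to 0.780 CPM in the E18.5 libraries and 9.54 to 14.1 CPM in those of P5, but 20.7 CPM in E15.5 replicate 2 (1.001 and 0.846 CPM in its 2 partners) and 177 and 339 CPM in P8 replicates 1 and 2 (16.9 CPM in replicate 3). These 3 libraries are those left out above. Of 5 endothelial markers 4 were called higher from E18.5 to P5 and of 4 mesenchymal markers none, and of 6 epithelial markers 3 were called higher and 1 lower. Of 3 tested markers of plasmacytoid dendritic cells 1 was called higher.

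The log2 ratio of each member to the summed leukocyte markers was compared in the same way, by an exact two-sided permutation test chosen after the data were seen and adjusted over the 10 members. The limit set by littermates, given above, applies here too. *Tlr1*, *Tlr2*, *Tlr3*, *Tlr5*, *Ly96* and *Myd88* were lower after birth relative to the leukocyte sum, by 1.05 (*Tlr2*) to 2.46 (*Ly96*) on the log2 scale. The adjusted exact permutation p was 0.011 for *Tlr1* and 0.0043 for each of the others. For *Tlr4* the difference was -0.05 (exact permutation p = 0.81), for *Cd14* 0.15 (p = 0.62, exact), for *Tlr9* -0.08 (p = 0.86, exact) and for *Tlr7* -0.41 (p = 0.23, exact), with overlapping ranges. This test pools time-points that differed: the mean log2 ratio of *Cd14* was -5.50 at E15.5 and -4.22 at E18.5, that of *Tlr9* -7.81 and -6.32, and that of *Tlr7* -5.64 and -4.84. Across birth alone, all 3 of these were lower in the P5 libraries than in any E18.5 library, with differences of -0.42 for *Cd14*, -0.69 for *Tlr9* and -0.63 for *Tlr7*. *Tlr4* and *Tlr1* overlapped in this step, with differences of 0.03 and -0.86. With 3 libraries against 3 an exact permutation test cannot go below 0.1, so the step is given without a test. Without the 3 libraries high in thymocyte markers, 5 embryonic and 4 postnatal libraries remained, and *Tlr2*, *Tlr3*, *Tlr5*, *Ly96* and *Myd88* were still lower (adjusted exact permutation p = 0.016 each) while *Tlr1* was not (p = 0.068, exact and adjusted).

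The rest of the pathway was described from lists of 70 genes outside the members, of which 60 were tested. From E18.5 to P5, 27 of these were called higher and 2 lower, with a median log2 fold change of 0.76, beside 17.5% of all genes called higher. Several of those called higher passed the filter only through their postnatal libraries, and *Sarm1*, called lower, only through its embryonic ones. These totals are therefore partly tied to the filter. From E15.5 to E18.5, 1 of the 60 was called higher, and from P5 to P8 none was called in either direction. The other Toll-like receptors that were tested, 4 of 5, were called higher at P5 than at E18.5. *Tlr8* had only 1 embryonic library at the filter level and entered the test through its postnatal libraries, and *Tlr11* was not tested. *Tlr8*, an endosomal receptor next to *Tlr7* on chromosome X, rose by 3.16 on the log2 scale (SE 0.40, FDR = 1.6e-05 in edgeR), from 0.655 ± 0.359 to 5.51 ± 1.502 CPM (SD, n = 3). *Tlr13*, which senses bacterial ribosomal RNA, rose by 2.04 (SE 0.20), *Tlr12*, a receptor for profilin of parasites, by 1.78 (SE 0.17) and *Tlr6*, the other partner of *Tlr2*, by 1.25 (SE 0.28).

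Of 8 co-receptors and chaperones 4 rose, led by *Cd36*, a lipid scavenger receptor that aids *Tlr2*, from 22.2 ± 6.96 to 568 ± 25.1 CPM (log2 fold change 4.76), and *Cd180*, a receptor related to *Tlr4*, from 0.787 ± 0.114 to 5.67 ± 0.506 CPM (2.93). The other two were *Lbp* (2.19), which carries lipopolysaccharide to CD14, and *Unc93b1* (1.80), which brings the endosomal receptors to their place. *Ly86*, the *Ly96* relative that pairs with *Cd180*, had a log2 fold change of 0.86 and was not called. Of 18 adaptors and kinases downstream 2 rose and 1 fell, with a median of 0.23, the lowest of the 7 pathway lists. *Irak2*, a kinase of the *Myd88* complex, rose by 1.84 (from 6.02 ± 1.01 to 20.3 ± 1.20 CPM), and *Sarm1*, a related adaptor known for its part in axon degeneration, fell by 1.496 (from 1.23 ± 0.251 to 0.408 ± 0.0698 CPM). All 5 libraries in which *Sarm1* reached 1 CPM were embryonic, so it passed the filter only through the group where it was high. *Ticam1*, the adaptor of *Tlr3*, was at 0.26 and was not called, as was *Tirap*, which bridges *Tlr4* or *Tlr2* to *Myd88*, at 0.37.

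Of 8 transcription factors 4 rose, with *Irf7* (2.99, from 1.26 ± 0.178 to 9.42 ± 1.06 CPM) and *Irf5* (1.998, from 3.42 ± 0.648 to 12.9 ± 1.05 CPM) ahead of *Relb* and *Rel*. Of 10 inhibitors 4 rose, among them *Irak3* (2.47), an inactive relative of the IRAK kinases, and *Tnfaip3* (2.20), a ubiquitin-editing enzyme that limits NF-kB. Of 4 genes of the IL-1 and IL-18 receptors, which also use *Myd88*, both IL-18 receptor chains rose, *Il18r1* by 3.19 and *Il18rap* by 2.82, the latter a gene that passed the filter through its postnatal libraries alone. Of 17 target genes only 8 passed the filter, several of them through the postnatal libraries alone, so their 7 calls higher and 1 lower say little of the list. The largest fitted changes were those of *Ccl5*, a chemokine for T cells (0.0783 ± 0.0363 CPM at E18.5, then 4.66 ± 4.36 CPM), and *Il1b*, an inflammatory cytokine (0.0875 ± 0.121 and 3.34 ± 0.564 CPM), both from very few reads before birth, and *Ccl2*, a monocyte chemokine, fell by 2.502.

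**Figure D4:**
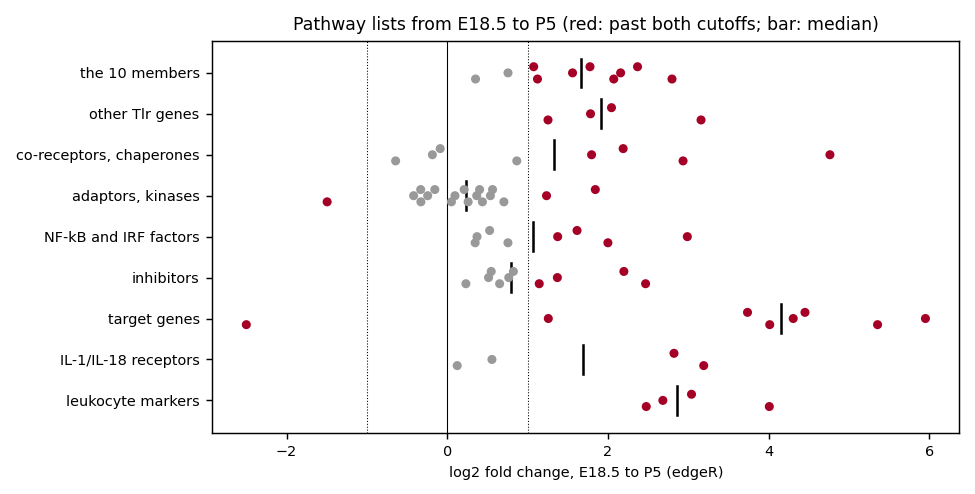
Log2 fold change between E18.5 and P5 (horizontal axis, edgeR) of each tested gene of the members, 7 pathway lists and the leukocyte markers, with red for genes past both cutoffs and a bar at each list's median. The adaptors and kinases have a median of 0.23, and the members of 1.67.

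The genes whose pattern was most like that of a member were taken from all tested genes by Pearson's r of log2(CPM + 1) over the 12 libraries, as a description, since any 2 genes that change at birth correlate. The nearest to *Tlr2* was another Toll-like receptor, *Tlr13* (r = 0.997), followed by *Tapbpl* (0.994) and *Adgre4* (0.993). *Tlr4* was nearest to *Pde7b* (0.997), *Emb* (0.996) and *Cd36* (0.996). *Tlr7* was nearest to *Egr2* (0.993), *Thnsl2* and *Siglec1* (0.991 each), the last a macrophage sialic acid receptor. *Cd14* was nearest to *Cd55* (0.995), which encodes a complement regulator, and to *Hip1r* and *Sgms2* (0.994 each). *Tlr9* was nearest to *Serpinb1a* (0.993), *Il16* (0.989) and *Ttc7* (0.987).

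*Tlr3* was nearest to *Rbms1* (0.995), *Arhgef26* and *Mtmr6* (0.991 each), *Tlr5* to *Arhgef28* (0.994), *Mef2d* (0.993) and *Rb1* (0.992), and *Myd88* to *Msx1*, *Ell2* and *Parp12* (0.993 each). *Tlr1* was nearest to the mast cell protease gene *Cma1* (0.961), *Ripor2* (0.957) and *Foxs1* (0.955). *Ly96* had the lowest best match, *Dnajc14* (0.926), with *Ube2w* and *Gprin3* at 0.924 each.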

How the data were processed

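The authors aligned 101-nt paired-end reads to mm10 with TopHat2 2.1.1 and Bowtie2 2.3.4 and counted them on Gencode vM14 genes with HTSeq-count 0.10.0. The deposited counts cover 16152 genes without normalization, and the deposited CPM values 51825 genes, each count divided by the total mapped reads. All CPM values gave whole reads within 0.1 read, and 100% of these equalled the deposited count. The deposited splicing table names events without genes and was not used here. IDs were matched to symbols, coordinates and exon lengths of GENCODE vM21 (GRCm38), which named 16136 of 16152. Genes that reached 1 CPM in 3 or more libraries were fitted in edgeR 4.0.16 (R 4.3.3) with TMM, in one quasi-likelihood fit of the 12 libraries, with 95% intervals from its standard errors. The script was tested on simulated data. DESeq2 1.42.0 and other settings were tried as alternatives. All members are named. From each pathway list the 2 called genes with the largest change from E18.5 to P5 are named, and every other Toll-like receptor. Further genes of these lists were chosen after their values were seen. The members and lists were chosen with earlier results of these data known.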

Additional observations from a re-analysis of the deposited data

Results flagged for a closer look

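*Tlr11*, a receptor for profilin of parasites, was in the CPM table but not among the 16152 counted genes, so no comparison above used it. It was flagged as a signal outside the main measurement. It had no read in the 3 libraries of E15.5, and 0, 2 and 1 reads at E18.5. At P5 it had 21, 12 and 18 reads (0.337, 0.248 and 0.296 CPM) and at P8 28, 39 and 47 reads (0.575, 0.637 and 0.772 CPM, mean 0.661 ± 0.101, SD, n = 3). Every P8 library was above every P5 library, and these above every embryonic one. The difference was not tested.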

How the results depend on the processing

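Over all settings, with the main fit itself counted among them, there were 1240 changes of single members. Of these, 1212 kept their direction and side of the thresholds, 6 fell short of a threshold, 12 passed one and 10 changed sign. With the FDR alone, 2 members were called between the embryonic time-points and 2 between the postnatal ones. Past both cutoffs, 0 were called in either of these intervals with all libraries. With each library left out in turn the count past both cutoffs was 0 to 1 between E15.5 and E18.5 (1 without E15.5 replicate 1), 7 to 8 from E18.5 to either postnatal time-point, 8 from E15.5 to either of them, and 0 each time from P5 to P8. Leaving out the 3 libraries high in thymocyte markers, chosen after seeing the data, left P8 with replicate 3 alone, so no count is given for it. The changes of sign were all in small changes that were not called. Between E15.5 and E18.5, leaving out single libraries moved *Tlr1* over -0.552 (without E18.5 replicate 3) to 0.322, with -0.219 when E15.5 replicate 1 was out. It moved *Tlr4* over -0.166 (without E15.5 replicate 3) to 0.221, with -0.140 when E18.5 replicate 1 was out. Between P5 and P8, *Tlr3* ranged from -0.278 to 0.074 (without P8 replicate 2), with 0.042 when P8 replicate 1 was out, and was at 0.331 without the 3 libraries. *Tlr1* ranged there from -0.284 to 0.098 and *Myd88* from -0.006 to 0.130, with the change of sign without P8 replicate 3. The causes were not tested. Members with few reads (*Tlr1*, *Tlr9*) had the widest intervals.

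Replicate numbers did not pair the samples: same-numbered libraries correlated by -0.199 to 0.307, over 0.1 in 6 of 18 pairs. With the replicate number as a block the counts of members called were 0, 8 and 0 over the adjacent intervals, and *Tlr1* was at -0.003 between E15.5 and E18.5.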
